A study of Mus musculus with 16 samples.

Results

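Polycomb repressive complex 2 (PRC2) is the enzyme that methylates H3K27 and so keeps developmental genes silent. The 10 genes described here encode its subunits: the catalytic subunits *Ezh1* and *Ezh2*, the core subunits *Eed* and *Suz12*, the histone-binding subunits *Rbbp4* and *Rbbp7*, and the accessory subunits *Mtf2*, *Phf19*, *Jarid2* and *Aebp2*. They were selected by gene symbol from the 18990 genes of the expression table, and all 10 had a row in it. Their expression was followed in the first days of reprogramming, when mouse embryonic fibroblasts (MEFs) begin to turn into induced pluripotent stem cells, with and without knockdown of *Wdr5*, *Brca1* or *Bard1*.

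The cells of all 8 groups were wild-type primary MEFs of the BL6 strain that carried lentiviruses with a doxycycline-inducible cassette of *Oct4*, *Sox2*, *Klf4* and *c-Myc* (OSKM) and with rtTA, the transactivator it needs. They were transfected with a pool of small interfering RNAs against *Wdr5* (si*Wdr5*), *Brca1* (si*Brca1*) or *Bard1* (si*Bard1*), or with non-targeting siRNA (nt control), and then received doxycycline in a medium with ascorbic acid, LIF, the GSK3 inhibitor Chiron and an Alk5 inhibitor of TGFb signalling. RNA was taken from each of the 4 treatments at day 3 and at day 6 of reprogramming, with 2 libraries per group, described as independent replicates, and 16 libraries in all. An siRNA pool lowers its target for a limited time and does not remove it, and each library averages over all cells of a culture, so fewer cells of a type and less RNA per cell cannot be told apart.

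PRC2 works as a core of *Eed*, *Suz12*, an Rbbp protein and either *Ezh2* or *Ezh1*. *Ezh2* is the stronger methyltransferase and is known for its high expression in dividing cells, whereas *Ezh1* persists in resting cells. *Eed* binds the finished mark and stimulates the enzyme, *Suz12* holds the core together, and the accessory proteins define separate forms of the complex: *Mtf2* and *Phf19* belong to the Polycomb-like proteins, which bring PRC2 to CpG islands, while *Jarid2* and *Aebp2* form the other branch, which recognises chromatin carrying ubiquitylated H2A. *Rbbp4* and *Rbbp7* are also subunits of the NuRD, Sin3, NURF and CAF-1 complexes. *Ezh2*, *Eed* and *Suz12* are textbook targets of the E2F transcription factors, which control genes of the cell cycle.

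The members lie on 8 chromosomes of the GRCm38 build in the GENCODE vM21 annotation, with *Ezh1* and *Suz12* on chromosome 11, *Ezh2* and *Aebp2* on chromosome 6, *Eed* on chromosome 7, *Jarid2* on chromosome 13, *Mtf2* on chromosome 5, *Phf19* on chromosome 2, *Rbbp4* on chromosome 4 and *Rbbp7* on chromosome X. The promoter windows that RefSeq gives for them, of 300 bases each, were searched on both strands for the E2F motif, spelled TTTNNCGC or TTTNNCGG with each N being C or G. No other motif was searched. A match was found for 3 of the 10 members, *Ezh2*, *Suz12* and *Phf19*, and for 8.995% of the 10195 tested genes with a promoter in the table (917 genes). These 3 promoters are printed here because their genes are among those that were lower after knockdown. Each is written 5′ to 3′ on the strand of the gene, from 250 bases before to 30 after the start site, in RefSeq GRCm38.p6 coordinates, with the motif in capitals. The *Ezh2* window is chr6:47595001-47595280 on the minus strand, the *Suz12* window is chr11:79992856-79993135 on the plus strand, and the *Phf19* window is chr2:34913947-34914226 on the minus strand.
*Ezh2*: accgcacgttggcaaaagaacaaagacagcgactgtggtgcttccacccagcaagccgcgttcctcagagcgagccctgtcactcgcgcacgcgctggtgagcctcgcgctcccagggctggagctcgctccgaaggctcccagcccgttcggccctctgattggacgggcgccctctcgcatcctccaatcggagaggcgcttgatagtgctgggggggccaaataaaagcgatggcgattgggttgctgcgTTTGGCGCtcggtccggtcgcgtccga
*Suz12*: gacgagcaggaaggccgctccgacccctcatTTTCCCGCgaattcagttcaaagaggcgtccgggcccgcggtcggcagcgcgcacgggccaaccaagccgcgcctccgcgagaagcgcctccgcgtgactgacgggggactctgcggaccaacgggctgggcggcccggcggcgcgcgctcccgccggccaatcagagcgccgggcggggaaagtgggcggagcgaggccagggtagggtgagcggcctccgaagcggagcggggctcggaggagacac
*Phf19*: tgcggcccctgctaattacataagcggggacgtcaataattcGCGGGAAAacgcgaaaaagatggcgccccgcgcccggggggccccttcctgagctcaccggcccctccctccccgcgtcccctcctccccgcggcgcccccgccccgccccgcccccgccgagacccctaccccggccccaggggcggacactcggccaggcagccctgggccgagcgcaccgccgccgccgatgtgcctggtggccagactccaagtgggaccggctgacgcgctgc
The match of *Ezh2* begins 3 bases after the start site, within the first exon, while those of *Suz12* and *Phf19* begin 219 and 208 bases before it. In GENCODE, 155 of the 280 printed bases of *Ezh2* are exonic because some of its transcripts start further upstream, against 30 for *Suz12* and 80 for *Phf19*, and 11 bases of the *Phf19* window also lie in an exon of *Gm13448* on the opposite strand. For *Ezh1*, *Eed*, *Jarid2*, *Aebp2*, *Mtf2*, *Rbbp4* and *Rbbp7* the windows hold no such letters. A match describes the sequence and does not show that a factor binds there.

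The libraries held 11169738 to 26832534 reads, so that 3 reads, taken as the floor, correspond to 0.115 to 0.260 CPM (reads scaled to the size of the library). Every member was far above it: the lowest count was 31 reads, for *Phf19*, and the other 9 had at least 208 reads in each library. The targets of the siRNAs served as a check of the labels. At day 3 *Wdr5* was at 50.6 and 55.3 CPM in si*Wdr5* against 132 and 130.5 CPM in the nt control, *Brca1* at 37.5 and 19.4 CPM in si*Brca1* against 82.4 and 78.0 CPM, and *Bard1* at 18.01 and 20.8 CPM in si*Bard1* against 30.5 and 29.1 CPM. The targets were also lower in each other's knockdowns. *Bard1* was at 14.4 and 9.07 CPM in si*Brca1* and 13.9 and 15.3 CPM in si*Wdr5*, below both si*Bard1* libraries. Its level thus did not single out the si*Bard1* label. *Wdr5* had log2-fold changes of -0.87 in si*Brca1* and -0.48 in si*Bard1*. Those of *Brca1* were -0.86 in si*Wdr5* and -0.38 in si*Bard1*, the last of which did not pass (limma, adjusted p = 0.26). At day 6 *Brca1* was at 35.9 and 40.1 CPM in the libraries labelled si*Brca1* (nt control 33.2 and 42.6 CPM). *Bard1* was at 12.6 and 14.5 CPM in those labelled si*Bard1* (nt control 11.3 and 14.0 CPM), so neither label was marked by its target at day 6. *Wdr5* was at 85.5 and 72.4 CPM in the day 6 si*Wdr5* libraries (nt control 91.8 and 98.1 CPM), a difference that did not pass the test (log2-fold change -0.27, adjusted p = 0.19, limma). All 9 fibroblast markers were expressed in all libraries (*Col1a1* from 1016 CPM upward), and the summed level of the early reprogramming and epithelial markers rose from 41.0 to 94.6 CPM at day 3 to 405 to 802 CPM at day 6. The 5 late pluripotency markers summed to 0.814 to 1.74 CPM at day 3 and 23.1 to 360 CPM at day 6. A gene with 0 reads stands at 0.136 CPM, a value added before the log, and the day 3 sums include it. *Zfp42*, *Dppa5a* and *Dppa4* were at this value in the nt control of day 3. Of cells that a MEF culture may also hold, 4 macrophage markers summed to 7.05 to 22.8 CPM, 4 endothelial markers to 15.8 to 59.6 CPM, most of it from *Tek*, and 3 neural markers to 21.2 to 74.2 CPM, most of it from *Tubb3*. *Adgre1*, *Pecam1* and *Cdh5* each had 0 reads in at least 1 library. The other macrophage and endothelial markers had reads in every library: *Cd68* 60 to 187, *Csf1r* 12 to 109, *Lyz2* 3 to 126, *Kdr* 2 to 45 and *Tek* 170 to 886.

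**Figure D1:**
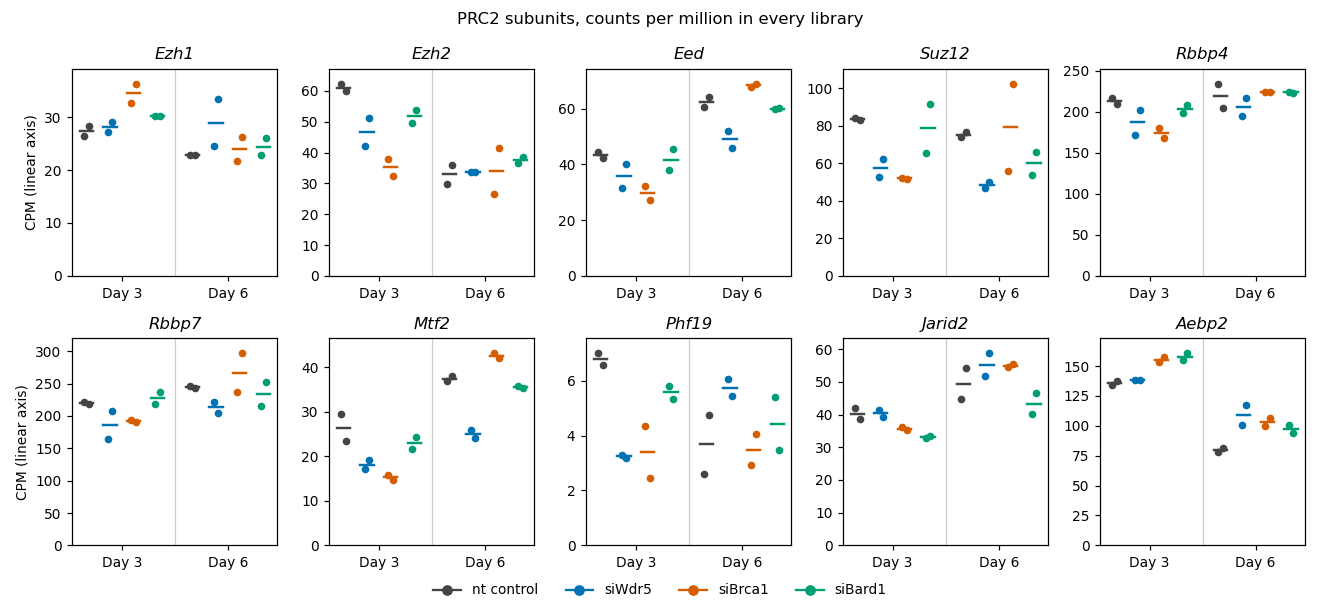
Expression of the 10 PRC2 subunits in CPM (y axis, linear, from 0) in each of the 16 libraries, by treatment (colours) and day. Each point is 1 library and each bar the mean of 2; *Ezh2*, *Suz12*, *Mtf2* and *Phf19* were lower in si*Wdr5* and si*Brca1* than in the nt control at day 3, and the *Ezh2* points of day 6 (26.6 to 41.6 CPM) lie below those of the day 3 nt control (59.8 and 62.3 CPM).

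The subunits differed widely in abundance. To compare genes with each other, CPM was divided by the length of all annotated exons of a gene in kb, a length that overstates transcripts with alternative ends. In the nt control at day 3 this gave 75.7 ± 0.811 CPM per kb for *Rbbp7* and 24.4 ± 0.533 for *Rbbp4*, then 16.9 ± 0.195 for *Suz12*, 13.8 ± 0.234 for *Aebp2*, 11.3 ± 0.357 for *Eed* and 9.14 ± 0.257 for *Ezh2* (mean ± SD, n = 2 for each). The lowest were *Mtf2* at 4.65 ± 0.733 CPM per kb, *Jarid2* at 4.15 ± 0.242, *Ezh1* at 3.69 ± 0.187 and *Phf19* at 1.35 ± 0.0583 (n = 2). Neighbours in this order were separated by more than their spread except *Mtf2* and *Jarid2*. At day 6 the nt control had *Eed* at 16.2 ± 0.659 CPM per kb, *Suz12* at 15.2 ± 0.447, and *Aebp2* at 8.11 ± 0.258, so that *Eed* had moved from below *Aebp2* to above it, while *Eed* and *Suz12* were not separated beyond their spread. Of the members' sequence, 11.6% of the 31-base words in *Rbbp7* transcripts also occur in *Gm6382* and 5.13% of those of *Rbbp4* occur in other annotated genes, so reads from such copies could be assigned to either. *Ezh1* and *Ezh2*, and likewise *Rbbp4* and *Rbbp7*, share 0 such words and can be told apart by reads. Exons of *Rbbp4* overlap those of genes on the other strand over 18.05% of their length, *Mtf2* over 6.93%, *Eed* over 6.82%, *Rbbp7* over 5.98%, *Suz12* over 3.60% and *Ezh2* over 2.61%. Whether reads were counted by strand is not given in the sources used here.

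The first question was how PRC2 expression at day 3 differed between each knockdown and the nt control. Transcripts of *Ezh2*, *Suz12* and the Polycomb-like subunits *Mtf2* and *Phf19* fell in both si*Wdr5* and si*Brca1*, and in si*Brca1* *Eed* and *Rbbp4* fell as well and *Ezh1* rose. In si*Brca1*, 6 of the 10 members fell and 1 rose at an adjusted p under 0.05 (limma, adjusted over 14028 genes), where 47.2% of all tested genes were called, 21.8% lower and 25.4% higher. In si*Wdr5*, 4 of the 10 fell and 0 rose, where 35.0% of all genes were called, 16.8% lower and 18.3% higher, so that the share called in either direction was close to that of all genes. In si*Bard1*, 0 of the 10 passed limma's test, where 14.5% of all genes were called, 5.87% lower and 8.67% higher. At an unadjusted p under 0.05 there were 2 members in si*Bard1* (*Aebp2* and *Jarid2*), beside 4392 of the 14028 tested genes. Limma-voom on the recovered reads also called 0 members. Of the called members only *Phf19* also passed the study's threshold of an absolute log2-fold change above 1, in si*Wdr5* and in si*Brca1*. It no longer did with a pseudocount of 1 CPM (-0.87 and -0.86), nor in si*Wdr5* with median-centred libraries or quantile normalization, and without si*Brca1* replicate 2 its si*Brca1* value was -0.64 (adjusted p = 0.040). Without nt control replicate 1 or without si*Wdr5* replicate 1 only *Phf19* was called in si*Wdr5*, and without nt control replicate 2 *Ezh2* was lost there. *Ezh2* in si*Wdr5* was at -0.25 without si*Wdr5* replicate 1 (adjusted p = 0.26). Without nt control replicate 1 the si*Brca1* calls were *Ezh2*, *Suz12*, *Mtf2* and *Phf19*, and without nt control replicate 2 *Ezh1* and *Rbbp4* were lost. All 3 comparisons use the same 2 nt control libraries, so their results are not independent of each other.

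**Figure D2:**
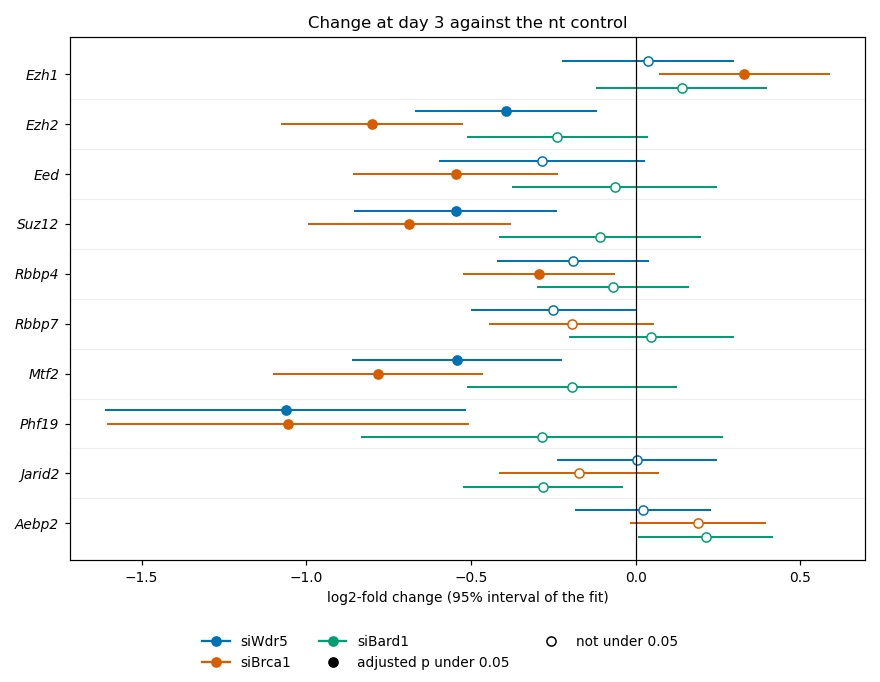
Change of each PRC2 subunit at day 3 against the nt control as log2-fold change (x axis) with its 95% interval, by knockdown (colours). Filled points have an adjusted p under 0.05; *Ezh2* changed by -0.80 in si*Brca1*, -0.39 in si*Wdr5* and -0.24 in si*Bard1*, the last of which did not pass.

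*Ezh2*, the main H3K27 methyltransferase of dividing cells, was expressed at 62.3 and 59.8 CPM in the nt control libraries of day 3. It was at 42.2 and 51.2 CPM in si*Wdr5*, at 38.0 and 32.4 CPM in si*Brca1* and at 49.7 and 54.0 CPM in si*Bard1*. All 6 knockdown libraries were below both controls, and the 2 si*Brca1* libraries were the lowest. *Ezh2* fell by 0.80 on the log2 scale in si*Brca1* (SE 0.13, adjusted p = 0.00021), a decrease to 0.574 of the control, and by 0.39 in si*Wdr5* (SE 0.13, adjusted p = 0.028). The si*Bard1* difference of -0.24 did not pass (95% interval -0.51 to 0.04, adjusted p = 0.22). Tested directly, *Ezh2* was lower in si*Brca1* than in si*Bard1* (log2 difference -0.56, adjusted p = 0.0092) and lower than in si*Wdr5* (-0.41, adjusted p = 0.044).

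*Ezh1*, the catalytic subunit that persists in resting cells, went the other way. It had 26.5 and 28.4 CPM in the nt control, 27.3 and 29.1 CPM in si*Wdr5*, 32.7 and 36.3 CPM in si*Brca1* and 30.1 and 30.3 CPM in si*Bard1*. Both si*Brca1* libraries were above all others of day 3, and the fit gave an increase of 0.33 on the log2 scale (SE 0.12, adjusted p = 0.036). In si*Wdr5* and si*Bard1* the log2 changes were 0.04 and 0.14 and did not pass (adjusted p = 0.83 and 0.46).

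The ratio of *Ezh2* to *Ezh1* was lower in each knockdown library of day 3 than in both controls, a difference that did not pass the test. Per kb of exon, *Ezh2* stood at 2.62 and 2.35 times *Ezh1* in the nt control libraries of day 3, at 1.72 and 1.96 times in si*Wdr5* and at 1.84 and 1.99 times in si*Bard1*. In si*Brca1* the ratios were 1.29 and 0.993, so that both transcripts had about equal CPM per kb of exon in 1 of the 2 libraries. The exon length overstates transcripts with alternative ends, and the proteins were not measured. On the log2 scale the CPM ratio was 1.16 ± 0.114 in the nt control (SD, n = 2) and 0.509 ± 0.401 in the 6 knockdown libraries, all of which were below both controls. These 6 libraries pool si*Wdr5*, si*Brca1* and si*Bard1*, with means of 0.72, 0.02 and 0.78 (n = 2 in each). Their SD thus includes differences between treatments, and they are not replicates of 1 condition. The exact two-sided permutation test over libraries, which takes the absolute difference in means, gave p = 0.071 (adjusted over 2 such tests, 0.14), where the smallest p that 6 against 2 libraries allow is 0.036; 1 other split of the libraries differed at least as much. At day 6 the log2 ratio was 0.464 ± 0.231 over 8 libraries against 0.67 ± 0.454 over the 8 of day 3, and this difference of -0.21 did not pass either (exact permutation test, p = 0.27, adjusted p = 0.27). This test pools treatments that differed in direction. The mean log2 ratio went from 1.16 to 0.52 in the nt control, from 0.72 to 0.23 in si*Wdr5* and from 0.78 to 0.62 in si*Bard1*, whereas in si*Brca1* it went from 0.02 to 0.48 (n = 2 in each). At day 6 the ratios per kb were 1.46 and 1.75 in the nt control, below both control libraries of day 3, and 1.36 and 1.77 in si*Brca1*, above both si*Brca1* libraries of day 3. The course within a treatment was not tested for the ratio.

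*Suz12*, which holds the core together, had 84.4 and 83.0 CPM in the nt control at day 3. It had 52.8 and 62.1 CPM in si*Wdr5* and 52.4 and 51.6 CPM in si*Brca1*, all well below the controls, while the si*Bard1* libraries at 65.8 and 91.6 CPM lay on either side of them. The decrease was 0.69 on the log2 scale in si*Brca1* (SE 0.14, adjusted p = 0.0013) and 0.55 in si*Wdr5* (SE 0.14, adjusted p = 0.0090). *Eed*, the reader of the mark, was at 44.3 and 42.4 CPM in the nt control, 31.7 and 40.0 CPM in si*Wdr5*, 32.4 and 27.2 CPM in si*Brca1* and 37.9 and 45.4 CPM in si*Bard1*. It fell by 0.55 in si*Brca1* (SE 0.14, adjusted p = 0.0066), and its si*Wdr5* value of -0.28 did not pass (95% interval -0.59 to 0.02, adjusted p = 0.14).

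*Rbbp4* and *Rbbp7*, which PRC2 shares with other complexes, had smaller point estimates than *Ezh2*, *Eed* and *Suz12* in si*Brca1* and si*Wdr5*. *Rbbp4* had 216 and 209.9 CPM in the nt control, 172 and 203 CPM in si*Wdr5*, 179.8 and 168 CPM in si*Brca1* and 198 and 208 CPM in si*Bard1*. Its decrease in si*Brca1* was 0.29 on the log2 scale (SE 0.11, adjusted p = 0.036). *Rbbp7* had 222 and 219 CPM in the nt control, 165 and 208 CPM in si*Wdr5*, 194 and 191 CPM in si*Brca1* and 219 and 237 CPM in si*Bard1*. None of its day 3 differences passed, and the si*Brca1* value was -0.19 (95% interval -0.44 to 0.05, adjusted p = 0.18).

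Both Polycomb-like subunits fell in si*Wdr5* and si*Brca1*. *Mtf2* was at 29.4 and 23.5 CPM in the nt control, 17.1 and 19.1 CPM in si*Wdr5*, 15.8 and 14.8 CPM in si*Brca1* and 21.7 and 24.3 CPM in si*Bard1*. It fell by 0.78 in si*Brca1* (SE 0.15, adjusted p = 0.00068) and by 0.54 in si*Wdr5* (SE 0.15, adjusted p = 0.011), and the si*Bard1* libraries overlapped the controls. *Phf19*, the least abundant subunit, was at 6.996 and 6.58 CPM in the nt control, 3.31 and 3.19 CPM in si*Wdr5*, 4.34 and 2.46 CPM in si*Brca1* and 5.81 and 5.33 CPM in si*Bard1*. Its log2-fold changes were -1.06 in si*Wdr5* (SE 0.25, adjusted p = 0.0058) and -1.06 in si*Brca1* (SE 0.25, adjusted p = 0.0038), and the si*Brca1* libraries differed from each other more than those of the other groups did.

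The subunits of the other branch did not pass the test at day 3. *Jarid2*, which recruits PRC2 and stimulates it, was at 42.0 and 38.6 CPM in the nt control, 41.4 and 39.4 CPM in si*Wdr5*, 36.3 and 35.2 CPM in si*Brca1* and 32.9 and 33.3 CPM in si*Bard1*. The si*Bard1* libraries were the lowest, with a log2 difference of -0.28 (95% interval -0.52 to -0.04, adjusted p = 0.10). *Aebp2*, a zinc-finger partner of *Jarid2* in this branch, was at 134 and 138 CPM in the nt control, 138 and 138 CPM in si*Wdr5*, 153 and 157 CPM in si*Brca1* and 155 and 161 CPM in si*Bard1*. Its log2 differences of 0.19 in si*Brca1* and 0.21 in si*Bard1* had adjusted p of 0.12 and 0.14.

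Direct comparison of the knockdowns at day 3 separated si*Brca1* from si*Bard1* in 5 of the 10 members, all lower in si*Brca1*, where 21.4% of all genes were called and 8.33% were lower. These were *Ezh2* (above), *Mtf2* (-0.59, adjusted p = 0.014), *Suz12* (-0.58, adjusted p = 0.013), *Eed* (-0.48, adjusted p = 0.030) and *Phf19* (-0.77, adjusted p = 0.045). Between si*Brca1* and si*Wdr5* only *Ezh2* passed (15.7% of all genes). Between si*Wdr5* and si*Bard1* limma called 0 members (8.63% of all genes), and limma-voom called 0. An unadjusted p under 0.05 was reached by 5 members and by 3637 of the 14028 tested genes. Without si*Bard1* replicate 2, 0 members separated si*Brca1* from si*Bard1*, and without si*Brca1* replicate 2 these were *Ezh2*, *Suz12* and *Mtf2*. The *Suz12* difference was -0.34 in the first of these fits, and that of *Phf19* was -0.36 in the second and -1.18 without si*Brca1* replicate 1. *Phf19* was also lost without si*Bard1* replicate 1, a fit in which *Suz12* separated si*Wdr5* from si*Bard1*. The *Ezh2* call between si*Brca1* and si*Wdr5* was lost without either si*Wdr5* library and without si*Brca1* replicate 2, and *Ezh1* and *Eed* joined it without si*Brca1* replicate 1. Its value was -0.27 without si*Wdr5* replicate 2. The largest differences between si*Wdr5* and si*Bard1* were *Phf19* at -0.78 (95% interval -1.32 to -0.23, adjusted p = 0.075) and *Suz12* at -0.44 (95% interval -0.74 to -0.13, adjusted p = 0.072).

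Because *Ezh2* and its partners are known to follow cell division, a list of 23 genes of S phase and mitosis was measured beside them. At day 3 their summed level was 3270 to 3295 CPM in the nt control, 1981 to 2149 CPM in si*Wdr5*, 1144 to 1955 CPM in si*Brca1* and 2591 to 2625 CPM in si*Bard1*, the same order as that of the mean level of *Ezh2*. Of the 23 genes, 22 fell in si*Brca1*, 20 in si*Wdr5* and 5 in si*Bard1*, and 0 rose in any of them. Of all tested genes 21.8%, 16.8% and 5.87% were lower in these comparisons. Their median log2-fold changes were -1.23, -0.75 and -0.36, where the medians over all tested genes were 0.00, -0.04 and -0.02. Among those with the smallest adjusted p were *Hells* (-1.43), a chromatin remodeller, and *Tyms* (-1.18), the thymidylate synthase, in si*Brca1*, and in si*Wdr5* *Uhrf1* (-0.97, a partner of DNA methylation at replication) and *Hells* (-0.79). The decrease of *Ezh2* by 0.80 in si*Brca1* was smaller than the median of the list. The si*Brca1* library with the lower proliferation sum, replicate 2, was also the lower in *Ezh2*, *Eed* and *Phf19* and the higher in *Ezh1*. It was only slightly below replicate 1 in *Suz12* (51.6 against 52.4 CPM), *Mtf2* (14.8 against 15.8 CPM) and *Jarid2* (35.2 against 36.3 CPM). The same held for *Rbbp4* (168 against 179.8 CPM) and *Rbbp7* (191 against 194 CPM). In *Aebp2* replicate 2 was slightly higher (157 against 153 CPM). Without it, *Ezh2*, *Eed*, *Suz12*, *Mtf2* and *Phf19* were still called in si*Brca1*, while *Ezh1* and *Rbbp4* were not. The summed fibroblast markers moved in the opposite direction, from 7949 to 8949 CPM in the nt control to 12080 to 13130 CPM in si*Brca1* and 13980 to 14520 CPM in si*Wdr5*. In si*Bard1* they summed to 9989 to 11560 CPM. *Col1a1* had the highest level of them in the nt control (mean 3677 CPM). Of the 9 markers, 6 rose in si*Brca1*, 7 in si*Wdr5* and 1 in si*Bard1*, and 0 fell. In si*Brca1* 2 had negative values that did not pass. Of all tested genes 25.4%, 18.3% and 8.67% were higher in these comparisons. Markers of other cells also differed between these groups. The 4 macrophage markers summed to 7.05 to 7.999 CPM in the nt control and 7.92 to 8.68 CPM in si*Bard1*. They summed to 11.8 to 13.95 CPM in si*Wdr5* and 16.2 to 17.2 CPM in si*Brca1*. Of the 3 that were tested, 2 rose in si*Brca1* and 1 in si*Wdr5*, where 25.4% and 18.3% of all genes were higher. Over all libraries *Adgre1* was at 0.136 to 1.004 CPM, *Cd68* at 4.29 to 11.1 CPM, *Lyz2* at 0.347 to 11.1 CPM and *Csf1r* at 1.09 to 5.445 CPM. The early reprogramming and epithelial markers summed to 71.0 to 94.6 CPM in the nt control, 49.2 to 52.8 CPM in si*Wdr5*, 41.0 to 58.0 CPM in si*Brca1* and 55.15 to 66.85 CPM in si*Bard1*. Of these 7 genes, 4 fell and 1 rose in si*Wdr5*, 3 fell and 1 rose in si*Brca1*, and 1 fell and 0 rose in si*Bard1*. The shares of all genes are those given above. The neural markers summed to 48.8 to 55.4 CPM in the nt control, 72.1 to 74.2 CPM in si*Wdr5* and 21.2 to 30.9 CPM in si*Brca1*. Most of these sums came from *Tubb3*. Of the 3 neural markers, 1 rose and 1 fell in si*Brca1* and 1 rose in si*Wdr5*, beside the shares of all genes given above. The endothelial markers, mostly *Tek*, summed to 41.4 to 42.4, 52.8 to 59.6 and 24.9 to 43.3 CPM. Of the 2 that were tested, 0 passed in si*Wdr5* or si*Brca1*. The part of these lists in the PRC2 values was not tested.

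**Figure D3:**
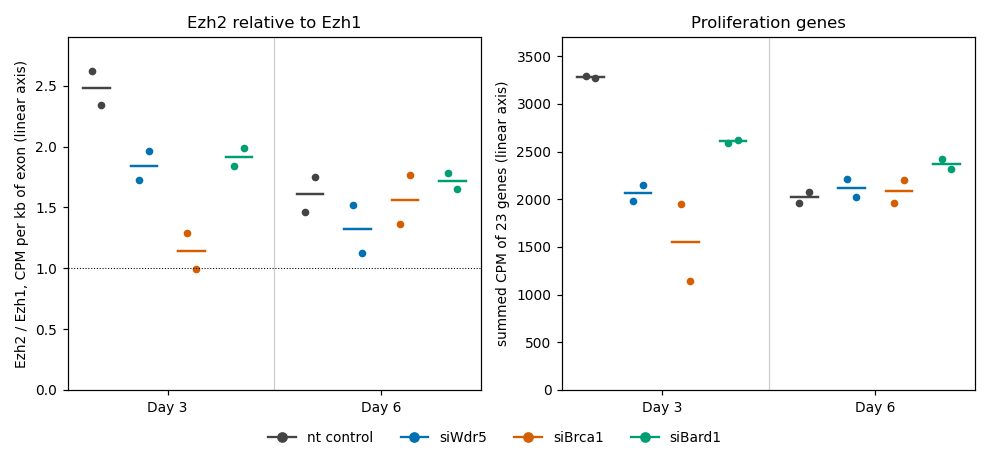
Left, the level of *Ezh2* relative to *Ezh1* per kb of exon (y axis, linear, dotted line at equal levels), and right, the summed CPM of 23 proliferation genes, in each of the 16 libraries by treatment (colours) and day. Points are libraries and bars means of 2; in both panels the nt control of day 3 is highest, and the si*Brca1* libraries of day 3 are lowest in the ratio except that 1.29 lies above the 1.12 of a si*Wdr5* library at day 6.

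The second question was what remained of these differences at day 6. In si*Wdr5*, 2 of the 10 members passed, where 21.8% of all genes were called: *Mtf2* fell and *Aebp2* rose. *Mtf2* was at 36.9 and 38.0 CPM in the nt control and at 25.9 and 24.1 CPM in si*Wdr5* (log2-fold change -0.58, SE 0.12, adjusted p = 0.0096), and *Aebp2* at 78.1 and 81.7 CPM against 101 and 117 CPM (0.44, SE 0.12, adjusted p = 0.026). Limma called 0 members when either nt control library or si*Wdr5* replicate 2 was left out, and both were still called without si*Wdr5* replicate 1. The share of members called was close to that of all genes. *Suz12* at 47.0 and 50.1 CPM was below both controls at 73.8 and 76.9 CPM, but its change of -0.63 did not pass (95% interval -1.14 to -0.13, adjusted p = 0.070). *Eed* at 51.9 and 46.0 CPM against 60.4 and 64.0 CPM likewise missed the threshold (-0.35, 95% interval -0.60 to -0.10, adjusted p = 0.052).

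In the libraries labelled si*Brca1* and si*Bard1*, whose targets overlapped the control, 0 of the 10 members passed limma's test at day 6, where 0% and 0.0784% of all genes were called. At an unadjusted p under 0.05 there was 1 member in each, *Aebp2*, with log2 differences of 0.37 and 0.28. Of the 14028 tested genes, 1123 and 1908 reached it, and limma-voom called 0 members. For *Ezh2* the day 6 libraries held 29.9 and 35.9 CPM in the nt control, 33.6 and 33.7 CPM in si*Wdr5*, 26.6 and 41.6 CPM in si*Brca1* and 36.8 and 38.5 CPM in si*Bard1*, so that both si*Bard1* libraries lay just above the range of the controls and the si*Brca1* libraries lay on either side of it. The si*Brca1* difference in *Ezh2* was 0.02 with a 95% interval of -0.40 to 0.45. The 2 si*Brca1* libraries of day 6 differed most in *Suz12*, at 56.2 and 102 CPM, which leaves its interval at -0.49 to 0.51. The remaining si*Brca1* values at day 6 were 67.9 and 68.8 CPM for *Eed*, 43.2 and 42.1 CPM for *Mtf2* and 2.91 and 4.05 CPM for *Phf19*, against 60.4 and 64.0, 36.9 and 38.0, and 2.62 and 4.76 CPM in the nt control.

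The change of the knockdown effect between the days was tested as day 6 change minus day 3 change. For si*Brca1* it was positive in *Mtf2* (0.97, SE 0.18, adjusted p = 0.0036), *Eed* (0.68, SE 0.19, adjusted p = 0.019) and *Ezh2* (0.82, SE 0.24, adjusted p = 0.026), 3 of the 10 members, where 20.5% of all genes were called. For si*Wdr5* it was positive in *Phf19* alone (1.77, SE 0.44, adjusted p = 0.041; 4.43% of all genes), which had been lower than the control at day 3 and stood at 6.06 and 5.44 CPM against 2.62 and 4.76 CPM at day 6. For si*Bard1*, 0 members passed in limma (0.0499% of all genes), with 0 at an unadjusted p under 0.05 (2694 of the 14028 tested genes) and 0 by limma-voom. In this test the median of all genes was 0.12 in si*Wdr5* and moved to -0.02 when libraries were centred on their medians. The *Phf19* call was lost with that centring and in 7 of the 8 fits that left out 1 library. For si*Brca1* only *Mtf2* was called without replicate 1 of the nt control at day 3 or at day 6, and without si*Brca1* replicate 2 of day 3. *Ezh2* was also lost without nt control replicate 2 of day 3 and without si*Brca1* replicate 2 of day 6, where its value was 0.50. Of the 23 proliferation genes, 20 passed with a positive value for si*Brca1*, and the median of the list was 1.33.

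The third comparison was the course of reprogramming itself, day 6 against day 3 within each treatment. In the nt control 3 of the 10 members fell, *Aebp2*, *Ezh2* and *Phf19*, and 2 rose, *Eed* and *Mtf2*, where 46.2% of all genes were called, 27.1% lower and 19.0% higher. *Ezh2* went from 62.3 and 59.8 CPM to 29.9 and 35.9 CPM (log2-fold change -0.90, SE 0.17, adjusted p = 0.00056). *Aebp2* went from 134 and 138 CPM to 78.1 and 81.7 CPM (-0.77, SE 0.10, adjusted p = 2.4e-05), and *Phf19* from 6.996 and 6.58 CPM to 2.62 and 4.76 CPM (-0.94, SE 0.31, adjusted p = 0.021). *Eed* went up from 44.3 and 42.4 CPM to 60.4 and 64.0 CPM (0.52, SE 0.13, adjusted p = 0.0046), and *Mtf2* from 29.4 and 23.5 CPM to 36.9 and 38.0 CPM (0.51, SE 0.13, adjusted p = 0.0041). The core subunits thus did not move together in the control. *Suz12* (-0.15, 95% interval -0.59 to 0.29), *Rbbp4* (0.04), *Rbbp7* (0.15) and *Ezh1* (-0.27, 95% interval -0.58 to 0.05) did not pass, and *Jarid2* at 0.29 came close (adjusted p = 0.059). Without nt control replicate 2 of day 3, *Ezh2*, *Eed* and *Aebp2* were called, and *Phf19* was also lost without replicate 1 of either day, with a value of -0.51 without that of day 6. The share of members called was close to that of all genes. The proliferation genes also fell in the control course, 13 of 23 with a median of -0.62.

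**Figure D4:**
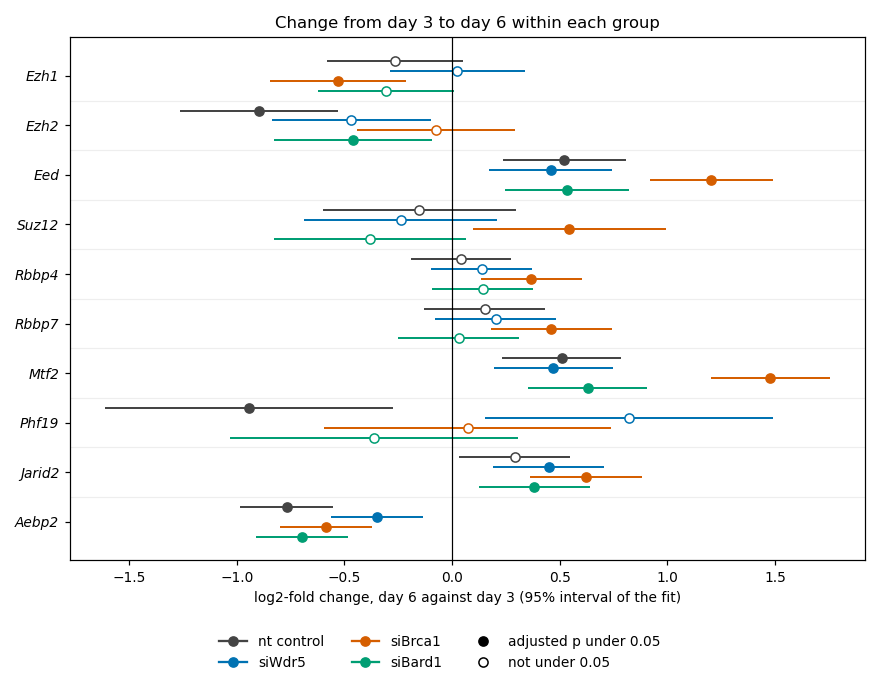
Change of each PRC2 subunit from day 3 to day 6 as log2-fold change (x axis) with its 95% interval, within the nt control and each knockdown (colours). Filled points have an adjusted p under 0.05; *Aebp2* lies below 0 and *Eed* and *Mtf2* above 0 in all 4 treatments, while *Ezh2* lies between -0.90 in the nt control and -0.08 in si*Brca1*.

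*Eed*, *Mtf2* and *Aebp2* passed in all 4 treatments in the same direction. The share of all genes that did so was not counted, and 25.3% to 49.4% of them were called in each course. *Eed* rose by 0.46 in si*Wdr5*, 0.53 in si*Bard1* and 1.204 in si*Brca1* on the log2 scale, *Mtf2* by 0.47, 0.63 and 1.48, and *Aebp2* fell by 0.35, 0.70 and 0.59. Each treatment has its own libraries of both days here, so these 4 courses share no samples. They were fitted in 1 model with a shared estimate of the spread, so their results are not independent of each other. In si*Brca1*, 6 members rose and 2 fell, where 49.4% of all genes were called, 20.5% higher and 28.9% lower. Besides *Eed* and *Mtf2* these were *Jarid2* (0.62, adjusted p = 0.00052), *Suz12* (0.54, adjusted p = 0.040), *Rbbp7* (0.46, adjusted p = 0.0082), *Rbbp4* (0.37, adjusted p = 0.0098), *Aebp2* and *Ezh1* (-0.53, adjusted p = 0.0070). In si*Wdr5*, 3 members rose, *Eed*, *Mtf2* and *Jarid2* (0.45), and *Aebp2* fell, where 25.3% of all genes were called, 14.9% higher and 10.4% lower. In si*Bard1*, *Eed*, *Mtf2* and *Jarid2* (0.38) rose and *Aebp2* and *Ezh2* (-0.46, adjusted p = 0.047) fell, where 34.6% of all genes were called, 17.0% higher and 17.7% lower. *Ezh2* in si*Wdr5* had a change of -0.47 that just missed the threshold (adjusted p = 0.056). Without si*Brca1* replicate 2 of day 3 the si*Brca1* calls were *Eed*, *Jarid2*, *Aebp2*, *Mtf2* and *Rbbp7*. *Suz12* was also lost without replicate 1 of day 3, *Ezh1* without replicate 1 of day 6, and *Suz12* (0.11) and *Rbbp7* (0.30) without replicate 2 of day 6, while *Suz12* was at 0.98 without replicate 1 of day 6. In si*Wdr5* and si*Bard1* single libraries decided the number of calls: it was 0 without si*Wdr5* replicate 1 of day 3 (*Eed* at 0.29), 2 without si*Wdr5* replicate 2 of day 3, 1 without si*Wdr5* replicate 1 of day 6, 2 without si*Bard1* replicate 1 of day 3, and 3 without replicate 2 of si*Bard1* at either day. *Jarid2* at day 6 was at 44.8 and 54.1 CPM in the nt control, 51.7 and 58.7 CPM in si*Wdr5*, 54.4 and 55.4 CPM in si*Brca1* and 40.1 and 46.5 CPM in si*Bard1*. *Rbbp7* at day 6 ranged from 205 to 297 CPM and *Rbbp4* from 195 to 234 CPM.

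Among 31 further Polycomb genes, 9 fell and 6 rose in si*Brca1* at day 3, 6 fell and 2 rose in si*Wdr5*, and 5 fell and 3 rose in si*Bard1*. Against the 47.2%, 35.0% and 14.5% of all genes called, 15 of the 31 in si*Brca1* was about the same share, 8 of the 31 in si*Wdr5* a smaller and 8 of the 31 in si*Bard1* a larger one. Their median log2-fold changes were -0.06, -0.04 and -0.08, near those of all genes given above. *Epop*, a PRC2 partner that links the Polycomb-like branch to Elongin BC, was lower by 1.44 in si*Brca1* (SE 0.19, adjusted p = 6.4e-05), by 1.00 in si*Wdr5* (adjusted p = 0.0015) and by 0.99 in si*Bard1* (adjusted p = 0.0053). Of PRC1, the complex that ubiquitylates H2A, *Pcgf6* was lower by 1.14 in si*Brca1* and 1.00 in si*Wdr5*, *Bcorl1* by 0.84 and 0.91, and *Phc1* by 0.42 and 0.69. *Scmh1* (0.92 and 0.66) was higher in both, and *Phc3* was higher in si*Brca1* (0.40). Of the H3K27 demethylases, which remove the mark, *Kdm6a* was lower in si*Brca1* (-0.35, adjusted p = 0.025) and *Kdm6b* was at 0.24 (adjusted p = 0.088). In the nt control course 12 of the 31 fell and 4 rose, where 46.2% of all genes were called, 27.1% lower and 19.0% higher. Their median was -0.16, where that of all genes was -0.07.

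**Figure D5:**
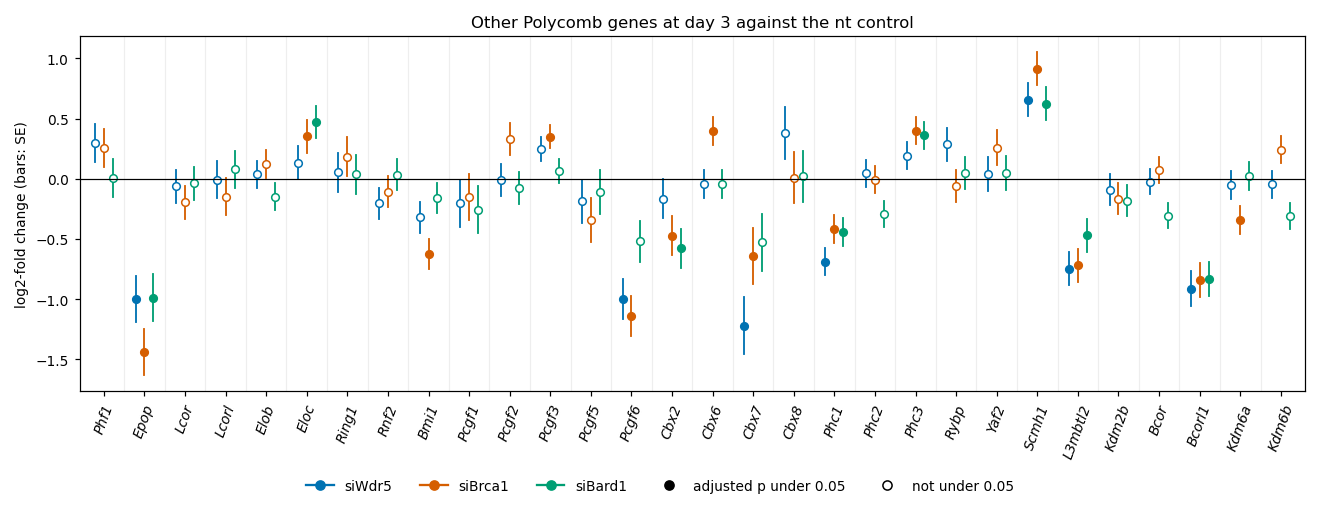
Change of 30 of the 31 further Polycomb genes (x axis) at day 3 against the nt control as log2-fold change with its SE (y axis), by knockdown (colours). Filled points have an adjusted p under 0.05; *Epop*, *L3mbtl2*, *Bcorl1* and *Phc1* lie below 0 and *Scmh1* above 0 with filled points in all 3 knockdowns.

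*Rbbp4* and *Rbbp7* were also set beside the other subunits of CAF-1, NuRD, Sin3 and NURF, all 21 of which were tested. At day 3, 5 fell and 2 rose in si*Brca1*, 3 fell and 0 rose in si*Wdr5*, and 2 fell and 0 rose in si*Bard1*. These are smaller shares than the 47.2%, 35.0% and 14.5% of all genes called in the same comparisons. The CAF-1 subunits that load histones at replication, *Chaf1b* (-1.22 and -0.99 in si*Brca1* and si*Wdr5*) and *Chaf1a* (-1.03 and -0.72), and *Sap30* of the Sin3 complex (-0.91 and -0.75) had the smallest adjusted p among those that fell. *Mta3* (0.87) and *Smarca1* (0.89) rose in si*Brca1*. In the nt control course 13 of the 21 fell and 1 rose, where 46.2% of all genes were called, 27.1% lower and 19.0% higher. The median was -0.46, whereas *Rbbp4* and *Rbbp7* had changes of 0.04 and 0.15 that did not pass.

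Genes known to carry H3K27 methylation in fibroblasts or embryonic stem cells were given as 18 symbols, of which 10 passed the filter on low values. In si*Brca1*, 3 of them rose and 0 fell, close to the 25.4% of all genes that were higher: *Cdkn2b*, a CDK inhibitor of the Ink4 locus (1.17, adjusted p = 6.1e-06), and the developmental factors *Hand2* (0.64, adjusted p = 0.029) and *Gata6* (0.50, adjusted p = 0.030). In si*Wdr5* *Cdkn2b* (0.98), *Gata6* (0.80) and *Tbx5* (0.60) rose and *Cdkn2a*, its neighbour in the same locus, fell (-0.40, adjusted p = 0.040), 4 of the 10 where 35.0% of all genes were called. In si*Bard1*, 2 rose and 0 fell, where 14.5% of all genes were called. The medians were 0.28, 0.53 and 0.22, and all genes lay at 0.00, -0.04 and -0.02. A filter on the mean keeps genes that are already expressed, so the 10 do not stand for silent loci, and H3K27 methylation itself was not measured here.

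The genes whose profiles were closest to those of the catalytic subunits were found by the root mean square difference between log2 CPM profiles over the 16 libraries, each centred on its own mean. For *Ezh2* these were *Supt16* (0.0773), *Dis3* (0.0886), *Mars2* (0.102), *Nol11* (0.106) and *Atad5* (0.106), where the median over all tested genes was 0.464. For *Ezh1* they were *Nek9* (0.0751), *Map3k7* (0.0794), *Mbd1* (0.0796), *Usp8* (0.0810) and *Copz1* (0.0843), with a median of 0.358 over all genes. None of the other subunits came near these values. The closest members to *Ezh2* were *Aebp2* (0.314) and *Suz12* (0.326), and the farthest was *Mtf2* (0.675), while the closest member to *Ezh1* was *Aebp2* (0.206). A flat profile would lie at 0.349 from *Ezh2* and at 0.212 from *Ezh1*, so even the closest members were hardly nearer than that. Libraries of 1 group and day share treatment and time, so these distances describe the 16 libraries together.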

How the data were processed

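RNA of 16 MEF cultures was sequenced paired-end after ribosomal RNA depletion. The authors aligned the reads with STAR 2.5.2b to mm10 (GRCm38) and computed log-CPM with edgeR 3.20.9, and these deposited log2 values (log2 CPM of 18990 genes, already scaled and raised by a small prior count) were the input here. Their own differential expression used DESeq2 on counts, which were not analysed here. The sources used here do not name the read counter, annotation, strand setting or filter. CPM in the text is 2 to the power of the deposited value. The deposited values gave back whole reads in every library (100% within 0.01 of a whole number), which served for library sizes, the 3-read floor and limma-voom.

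The 14028 genes whose log2 CPM averaged 0 or more were tested with limma 3.58.1 in R 4.3.3, with 1 mean per group and a trend on mean expression. Comparisons within a day used its 8 libraries, and the courses and the differences between days all 16. Two-sided p-values were adjusted over all tested genes (Benjamini-Hochberg), and intervals (95%) come from the same fit. They rest on 1 spread per gene, estimated between the 2 libraries of each group over all groups in the model and moderated by the trend. The fit was also run on simulated counts with the same spread for all genes and few changed genes. Such counts do not stand for the spread or the share of changed genes in these data. Ratios were compared by exact permutation (scipy 1.17.1). The members and gene lists were chosen with earlier results of these data known. Of each list, the 3 genes with the smallest adjusted p per direction in si*Brca1* or si*Wdr5* at day 3 are named, except 2 genes that are not reported here. *Kdm6a* and *Kdm6b* were named for their role, and further genes in the caption of the Polycomb plot after their values were seen. Alternatives were other filters, scalings, models, a replicate block and fits without each library.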

Additional observations from a re-analysis of the deposited data

Results flagged for a closer look

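These values differed between knockdowns or between days by a test of the difference itself (limma, adjusted over all tested genes). Between day 6 and day 3 the change against the nt control differed for *Mtf2* (0.968 on the log2 scale, adjusted p = 0.0036), *Ezh2* (0.822, adjusted p = 0.026) and *Eed* (0.683, adjusted p = 0.019) in si*Brca1*, each of which was lower than the control at day 3 and did not pass at day 6. The same difference for *Phf19* in si*Wdr5* was 1.77 (adjusted p = 0.041), from a lower level at day 3 to a level at day 6 that did not pass.

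At day 3 si*Brca1* differed from si*Bard1* in *Phf19* (-0.77, adjusted p = 0.045), *Mtf2* (-0.588, adjusted p = 0.014), *Suz12* (-0.578, adjusted p = 0.013), *Ezh2* (-0.563, adjusted p = 0.0092) and *Eed* (-0.483, adjusted p = 0.030). Against si*Wdr5* it differed in *Ezh2* (-0.408, adjusted p = 0.044). The summed proliferation genes were 1144 to 1955 CPM in si*Brca1*, 1981 to 2149 CPM in si*Wdr5* and 2591 to 2625 CPM in si*Bard1*, and their part in these differences was not tested.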

How the results depend on the processing

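For the 45 called pairs of a member and a comparison, 620 values under other settings gave 503 that stayed past the threshold, 117 that missed it and 0 that changed sign. In 15 pairs all settings run passed: *Ezh2*, *Suz12*, *Mtf2* and *Phf19* in si*Brca1* and *Phf19* in si*Wdr5* at day 3, *Ezh2*, *Eed* and *Aebp2* in the nt control course, *Eed*, *Jarid2*, *Aebp2* and *Mtf2* in the si*Brca1* course, *Aebp2* and *Mtf2* in the si*Bard1* course, and the difference between days of *Mtf2* in si*Brca1*. The share of all genes called was not counted under these settings, so the counts of members below cannot be set against it. The number of called members moved by over 1.5 times as follows, and the cause was not tested. Without a trend it was 2 in si*Wdr5* at day 3, 1 in si*Wdr5* at day 6, 0 for the difference between days in si*Wdr5*, and 0 for si*Brca1* against si*Wdr5* and against si*Bard1*. With all 16 libraries in 1 model it was 2 in si*Wdr5* at day 3, 0 for si*Brca1* against si*Wdr5* and 3 for si*Brca1* against si*Bard1*. With quantile normalization it was 4 in si*Wdr5* at day 6, 8 in the nt control course and 1 for si*Wdr5* against si*Bard1*. With only the groups compared it was 4 in the si*Brca1* course, 0 for si*Brca1* against si*Wdr5*, 1 against si*Bard1* and 2 for si*Wdr5* against si*Bard1*. Without a filter it was 0 for si*Brca1* against si*Wdr5* and 2 against si*Bard1*, and with median-centred libraries 0 for the difference between days in si*Wdr5*. The deviations of same-numbered libraries correlated at -0.093 to 0.072 at day 3 and -0.07 to 0.26 at day 6, so the numbers were not treated as pairs. With the replicate number as a block it was 4 in si*Wdr5* at day 6 and 2 for si*Wdr5* against si*Bard1*, and it stayed within 1.5 times elsewhere.

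Leaving out 1 library gave 1 to 5 called members in si*Wdr5* and 4 to 7 in si*Brca1* at day 3, 0 to 2 in si*Wdr5* at day 6, 3 to 5 in the nt control course, 0 to 3 in the si*Wdr5*, 5 to 7 in the si*Brca1* and 2 to 4 in the si*Bard1* course, 0 to 1 and 1 to 4 for the difference between days in si*Wdr5* and si*Brca1*, 0 to 3 for si*Brca1* against si*Wdr5*, 0 to 5 against si*Bard1* and 0 to 1 for si*Wdr5* against si*Bard1*, where a lone library is assumed to vary like the other groups. The *Ezh2* to *Ezh1* difference was -0.71 to -0.58 at day 3 and -0.25 to -0.17 between days without 1 of the replicate numbers. The share of all genes called without each library was not counted. The counts of members in such fits, here and above, thus cannot be set against other genes. *Phf19*, with as few as 31 reads, had the least depth of the members.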

Other observations

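At day 6 genes around PRC2 also differed in si*Wdr5*, where 21.8% of all tested genes were called by limma and the median of all genes was 0.08 on the log2 scale. The genes named here were chosen after their values were seen. Of the 31 further Polycomb genes, 4 passed: the PRC1 genes *Cbx6* (0.43, adjusted p = 0.040) and *Pcgf3* (0.45, adjusted p = 0.022) were higher, and *Pcgf6* (-0.60, adjusted p = 0.018) and *Rnf2*, a ubiquitin ligase of PRC1 (-0.45, adjusted p = 0.030), were lower. Of the 21 other subunits of complexes that hold *Rbbp4* and *Rbbp7*, 6 were higher and 1 lower, with a median of 0.20; the NuRD helicases *Chd3* (0.55, adjusted p = 0.018) and *Chd4* (0.39, adjusted p = 0.048) were among the former. Of the 10 tested Polycomb target genes, 3 were higher, the developmental factors *Tbx5* (1.53, adjusted p = 0.033), *Hand2* (1.11, adjusted p = 0.0097) and *Gata6* (0.94, adjusted p = 0.047). The summed fibroblast markers were at 9235 to 12600 CPM in si*Wdr5* and 4874 to 5082 CPM in the nt control of day 6. Of these 9 markers, 5 were higher and 0 lower, where 16.1% of all genes were higher. The part of the fibroblast markers in the values above was not tested.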
